A study of Mus musculus with 2 samples.

Results

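Myosin heavy chains are the large subunits of the motor that pulls on actin filaments. Of the 28786 genes and transcripts on the array, 10 carried the name of a heavy chain listed here, and all of their probes were kept. There were 7 sarcomeric chains, Myh1, Myh2, Myh3, Myh4, Myh6, Myh7 and Myh8, which build the thick filaments of striated muscle. The other chains were the 3 non-sarcomeric ones, Myh9 and Myh10 of the cytoplasm of most cells and Myh11 of smooth muscle. The members were chosen by name, with earlier results of these data known.

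Gene expression was measured in 2 tumours of 1 kind, with 1 array for each. Each tumour grew for 2 weeks under the skin of a male C57BL/6J mouse after injection of 1000000 cells in 200 µl of buffer. The injected mouse line, RMS3, is described in the labels as PRMS, an abbreviation that they do not spell out. A passage of the labels calls the harvested tumours metastatic, while the sample names describe tumours at the injected site. No untreated muscle, no cultured RMS3 cells and no second line stood beside them, so tumour 1 and tumour 2 were compared with each other, with 1 tumour on each side and no test. Nothing in the labels says whether both tumours came from 1 culture of RMS3 cells.

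In striated muscle a heavy chain pairs with another heavy chain and with light chains, and the tails assemble into the thick filament. Muscle changes its heavy chain with age and fibre type: Myh3 is the embryonic chain and Myh8 the perinatal chain, while Myh2, Myh1 and Myh4 are the fast chains of adult types 2A, 2X and 2B. Myh7 is the slow and cardiac beta chain and Myh6 the cardiac alpha chain. Myh9 and Myh10 are the heavy chains of non-muscle myosin IIA and IIB, which drive contraction of the cell cortex and cell division.

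In both tumours, probes named for embryonic, perinatal, fast adult, slow and non-muscle heavy chains were well above background. The perinatal chain Myh8 was so by 1 of its 4 probes, and the slow chain Myh7 was near the lower limit of detection. Of the 7 sarcomeric chains 5 were well above background on both arrays, namely Myh2, Myh3, Myh4, Myh7 and Myh8, and all 5 read higher in tumour 2, with a median difference of 0.97 on the log2 scale and a range from 0.46 to 1.19. Of the 3 non-sarcomeric chains, 2 were well above background on both arrays. Myh10 differed by -0.01 between the tumours, and the 2 probes of Myh9 disagreed. Over all 22780 genes with a usable spot, 13945 (61.2%) were well above background on both arrays and their median difference was -0.01.

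The level of a probe is its processed signal on the log2 scale, set against the 75th percentile of usable spots on its array, so that a level of 0 is a signal of 995 in tumour 1 and 902 in tumour 2. Each probe has its own efficiency, so levels are set against each other between tumours and not between genes. No order of abundance among the chains is given. Probe sequences were not at hand, so whether a probe also reads related chains was not checked. Levels are means ± SD of 2 tumours. The well above background call is that of the scanner software. The scanner flagged 1128 spots of array 1 and 69 of array 2 as outliers, and flagged spots of either array were left out. Spots near a flag of array 1, or near a spot of high background on array 2, were left out as well, and those near the other flags of array 2 were kept. Among the spots kept, the spots of probes printed several times had an SD of 0.23 on array 1 and 0.091 on array 2, which makes a technical SD of 0.24 for the difference of single spots. That value covers spots within an array and not the step from tumour to array.

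The signal of added control RNA also differed between the arrays. Of 8 spike-in probes well above background on both arrays, 7 read higher on array 2, by 0.83 to 0.98, and the remaining one differed by -1.09. Their median difference was 0.87, close in size to the median of the sarcomeric chains. Its part in the differences of the heavy chains was not tested.

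**Figure D1:**
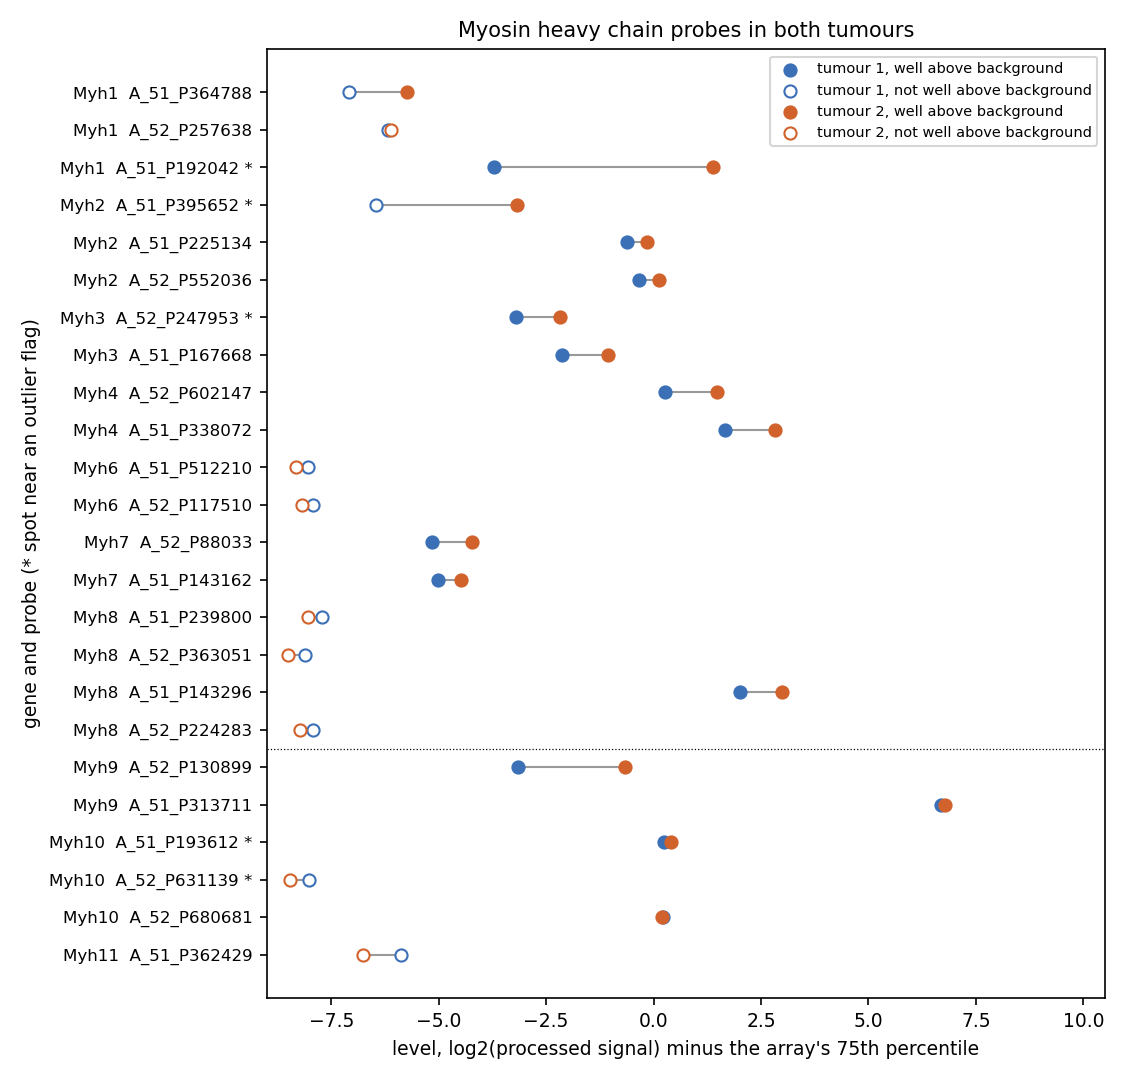
Each row is a probe of a myosin heavy chain gene and the horizontal axis gives its level on the log2 scale, set against the 75th percentile of the array. Blue points are tumour 1 and orange points tumour 2, open points were not well above background, an asterisk marks a spot near an outlier flag, and the dotted line parts 18 sarcomeric from 6 non-sarcomeric probes; the 8 filled pairs of sarcomeric probes without an asterisk all lie higher in tumour 2.

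Among the developmental chains, Myh8 stood well above background in both tumours. Its probe A_51_P143296 had a processed signal of 4040 in tumour 1 and 7177 in tumour 2, or levels of 2.02 and 2.99 (2.51 ± 0.69, SD, n = 2). Tumour 2 was thus higher by 0.97, or 1.96-fold, and 97.2% of all detected genes had a lower difference. The other 3 probes named Myh8 read between 2.47 and 4.75 on the arrays and were not well above background in either tumour. One of them, A_52_P224283, was made to the same RefSeq transcript record as the bright probe, and the other 2 to cDNA records. The call for the perinatal chain therefore rests on 1 of its 4 probes.

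The embryonic chain Myh3 read 228 in tumour 1 and 434.5 in tumour 2 with probe A_51_P167668, or levels of -2.13 and -1.05 (-1.59 ± 0.76, SD, n = 2). Its difference was 1.07, or 2.10-fold. A further probe of Myh3, A_52_P247953, lay near an outlier flag but had neighbours without a shift (median -0.07). It read 109 and 199.8, a difference of 1.02, so both probes of Myh3 put tumour 2 higher by nearly the same amount.

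Of the fast adult chains, the type 2B chain Myh4 differed more than Myh2, and its 2 probes lay within 0.041 of each other. Probe A_51_P338072 read 3150 and then 6426, higher in tumour 2 by 1.17, and probe A_52_P602147 read 1190 and 2498, a difference of 1.21. The difference of the gene was 1.19 (2.28-fold), with a level of 1.56 ± 0.84 (SD, n = 2). Of all detected genes, 98.3% had a lower difference.

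The type 2A chain Myh2 was nearer between the tumours. Its probe A_51_P225134 read 644 and 805, and its probe A_52_P552036 read 788 and 984, so both were higher in tumour 2 by 0.46, or 1.38-fold. The level of the gene was -0.25 ± 0.33 (SD, n = 2). This difference is smaller than the SD of 0.55 over the differences of all detected genes, of which 87.2% lay lower. The probe A_51_P395652 of Myh2 lay near an outlier flag. It was not well above background in tumour 1 (11.3) and read 99.9 in tumour 2, which makes it at least 6.09-fold higher there against the lowest level well above background on array 1. The bound is far from the 1.38-fold of the other probes. The neighbours of that spot had a median difference of 0.17, and 21.3% of them were at least 2-fold higher in tumour 2.

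The type 2X chain Myh1 could not be compared away from flags. Probe A_51_P364788 read 7.32 in tumour 1, not well above background, and 16.8 in tumour 2, just above it, a bound of at least 1.02-fold. Probe A_52_P257638 read 13.8 and 13.1 and was not well above background in either tumour. The largest difference of any member probe belonged to the third probe, A_51_P192042, with signals of 75.7 and 2361 and thus a difference of 5.10. Its spot lay near an outlier flag, and the 81 spots within 5 rows and columns of it that were well above background in tumour 2 had a median difference of 2.12, with 64.2% of them at least 2-fold higher in tumour 2. No difference of Myh1 is therefore counted here. With spots near flags included, Myh1 and Myh9 were the 2 members at least 2-fold higher in tumour 2, beside 5.15% of all detected genes.

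**Figure D2:**
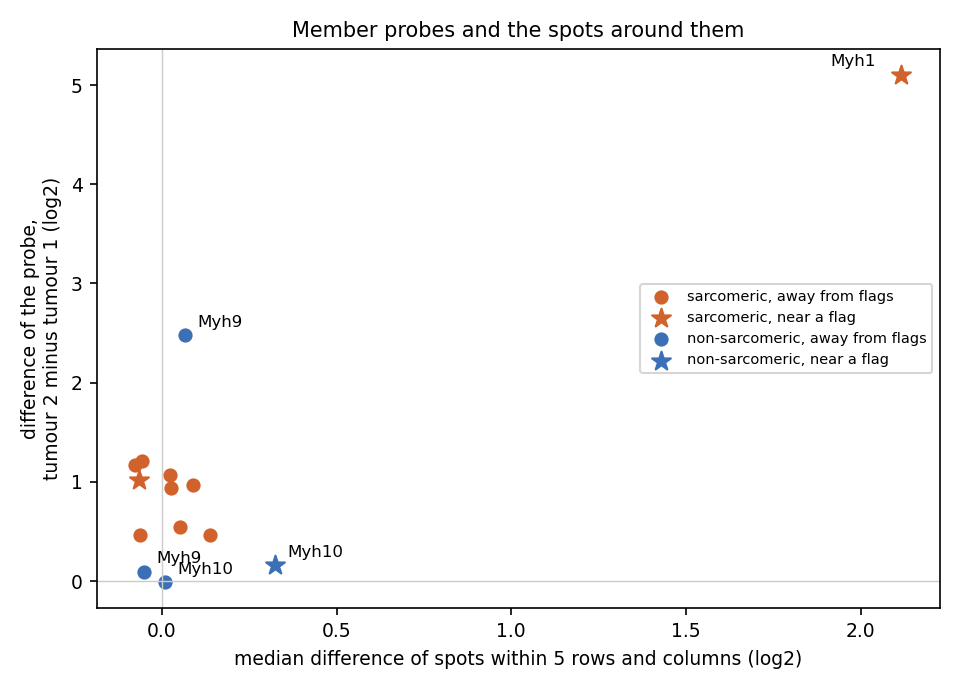
The 14 member probes well above background in both tumours, with the median difference of the spots around each (within 5 rows and columns and well above background in tumour 2, log2) on the horizontal axis and the probe's own difference, tumour 2 minus tumour 1 (log2), on the vertical axis. Orange is sarcomeric, blue non-sarcomeric, and stars lie near an outlier flag; the Myh1 star at 5.10 sits among spots with a median of 2.12, while the Myh9 probe at 2.48 sits among spots with a median of 0.07.

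The slow and beta-cardiac chain Myh7 was near the lower limit of detection. Probe A_52_P88033 read 27.7 and then 48.3, higher in tumour 2 by 0.94, and probe A_51_P143162 read 30.7 and 40.5, a difference of 0.54. The difference of the gene was 0.74 (1.67-fold) and its level -4.72 ± 0.52 (SD, n = 2). The scanner's own error of these signals was 4.64 and 5.51 for the first probe and 5.75 and 5.41 for the next. The cardiac alpha chain Myh6 was not well above background with either probe, which read between 2.82 and 4.07.

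At least 2-fold higher in tumour 2 were 2 of the 5 detected sarcomeric chains, Myh3 and Myh4, beside 361 of all detected genes (2.59%). Myh8 at 1.96-fold fell just short of that line. Both calls sat close to the line. Myh3 and Myh4 both fell short of it with the 75th percentile over all unflagged spots (0.87 and 0.99), with spots near flags included (0.85 and 0.99) and with flagged spots too (0.82 and 0.97). Myh3 alone fell short without scaling (0.93) and with normexp background correction refitted (0.92), and Myh4 alone with normexp as first fitted (0.50). No member was at least 2-fold higher in tumour 1, where 539 of all detected genes (3.87%) were. Higher in tumour 2 by any amount were 5 of 5 sarcomeric chains beside 48.4% of all detected genes. That share depended on the processing, at 33.8% with spots near flags included, 34.1% without scaling and 64.2% after normexp background correction as first fitted. Under that normexp fit the median of all genes moved to 0.68 and that of the sarcomeric chains to 0.50, and 2 of the 5 chains were above the median of all genes. The chains then spread from 0.09 for Myh8 to 3.0 for Myh7. When the fit left out the 11 spots with high background on array 2, the medians were 0.89 for the sarcomeric chains and -0.01 for all genes.

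Myh9 was bright in both tumours by 1 of its probes. Probe A_51_P313711 read 102000 in tumour 1 and 98663 in tumour 2, which are levels of 6.68 and 6.77 and differ by 0.09. Probe A_52_P130899, designed from another transcript record of the same gene, read 112 and 566, a difference of 2.48. Its spot was away from flags and its neighbours had a median difference of 0.07. A gap of 2.39 between probes of 1 gene was reached by 40 of the 3440 genes with several detected probes (1.16%), and the median gap was 0.35. By the rule of taking the median over probes Myh9 would be 2.44-fold higher in tumour 2, a value that neither probe gives, with a level of 2.41 ± 0.91 (SD, n = 2).

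Myh10 gave the same reading in both tumours within the spot error. Probe A_52_P680681 read 1150 in tumour 1 and 1033 in tumour 2, or levels of 0.21 and 0.20 (0.20 ± 0.0095, SD, n = 2). A further probe near a flag, A_51_P193612, read 1180 and 1194, a difference of 0.16. The third probe, A_52_P631139, made to a cDNA record, was not well above background. The smooth muscle chain Myh11 has 1 probe, which read 16.8 in tumour 1 and 8.26 in tumour 2 and was not well above background in either.

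The median over the non-sarcomeric chains was 0.64 with both Myh9 probes and 0.040 without the probe A_52_P130899. The gap between the medians of sarcomeric and non-sarcomeric chains was accordingly 0.33 or 0.93. With 2 non-sarcomeric genes detected, this gap depends on that 1 probe. Where 3 non-sarcomeric genes were counted, with both Myh9 probes kept, the gap was 0.72 without a detection filter. It was 0.87 with the positive and significant call.

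The fast and developmental chains lie side by side in the mouse genome. In the order of RefSeq genes of GRCm38.p6 on chromosome 11 they run Myh3, Myh2, Myh1, Myh4, Myh8 and Myh13, with noncoding genes between some of them, and the nearest protein-coding neighbours measured on both sides were Sco1 and Gas7. Myh3, Myh2, Myh4 and Myh8 differed by 1.07, 0.46, 1.19 and 0.97, whereas Sco1 differed by 0.21 and Gas7 by 0.13. With spots near flags included, Sco1 and Gas7 changed sign, to -0.28 and -0.06, beside a median of -0.18 over all genes. Myh13, the extraocular muscle chain, had no spot away from flags. Myh6 and Myh7 lie near each other on chromosome 14, and Myh10 lies on chromosome 11 as well, outside the cluster.

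The 250 bases before the RefSeq starts of the clustered members were compared, and Myh3 was left out of the search for a shared run. RefSeq windows on GRCm38.p6 were at hand for 9 of the 10 members, all but Myh11. A run of 14 bases, TTCTAATTATATCC, is the longest run shared by the windows of Myh1, Myh2, Myh4 and Myh8, which were picked for this comparison. It was in no other of the 32851 windows searched on both strands (4 windows, 0.0122%), so it was not in those of Myh3, Myh6, Myh7, Myh9 and Myh10. The run was taken from the windows of Myh1, Myh2, Myh4 and Myh8 themselves, so its rarity elsewhere was not a test. Its first base stood 160, 125, 158 and 54 bases before the start of Myh1, Myh2, Myh4 and Myh8. Myh3 is shown as the clustered chain without it. The windows, all on the + strand, are chr11:67199852-67200101 for Myh1, chr11:67170777-67171026 for Myh2, chr11:67237562-67237811 for Myh4, chr11:67276874-67277123 for Myh8 and chr11:67078050-67078299 for Myh3. Capitals mark the shared run and each TATAAA on the printed strand.
Myh1: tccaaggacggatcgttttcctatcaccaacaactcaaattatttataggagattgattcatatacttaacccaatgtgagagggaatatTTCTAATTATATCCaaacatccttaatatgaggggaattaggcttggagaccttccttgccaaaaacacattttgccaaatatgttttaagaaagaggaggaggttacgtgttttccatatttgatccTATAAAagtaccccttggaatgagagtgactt
Myh2: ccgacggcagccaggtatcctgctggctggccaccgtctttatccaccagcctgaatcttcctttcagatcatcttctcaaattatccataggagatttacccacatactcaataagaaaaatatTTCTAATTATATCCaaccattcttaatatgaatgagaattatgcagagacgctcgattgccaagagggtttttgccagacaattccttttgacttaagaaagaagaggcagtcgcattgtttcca
Myh4: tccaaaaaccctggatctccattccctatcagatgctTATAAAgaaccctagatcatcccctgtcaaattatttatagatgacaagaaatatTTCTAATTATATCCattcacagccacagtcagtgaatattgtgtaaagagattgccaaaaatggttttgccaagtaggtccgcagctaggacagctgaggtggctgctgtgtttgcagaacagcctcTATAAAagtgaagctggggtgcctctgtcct
Myh8: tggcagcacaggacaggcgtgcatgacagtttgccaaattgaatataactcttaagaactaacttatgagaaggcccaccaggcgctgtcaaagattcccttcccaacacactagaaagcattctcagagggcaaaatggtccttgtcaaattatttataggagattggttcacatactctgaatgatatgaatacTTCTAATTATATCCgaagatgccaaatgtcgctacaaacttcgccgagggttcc
Myh3: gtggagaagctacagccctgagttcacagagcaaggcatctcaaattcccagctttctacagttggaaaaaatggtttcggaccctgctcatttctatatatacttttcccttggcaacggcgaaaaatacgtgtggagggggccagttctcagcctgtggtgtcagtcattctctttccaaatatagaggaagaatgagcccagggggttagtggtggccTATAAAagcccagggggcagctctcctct

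TATAAA, the core of a TATA box, began 32, 31 and 29 bases before the start in Myh1, Myh4 and Myh3, and in Myh4 again at 213 bases. No TATAAA was in the window of Myh2, and in that of Myh8 it stood on the other strand. The shared run began at 160 and 158 bases in Myh1 and Myh4, but at 125 and 54 in Myh2 and Myh8. A TATAAA as far past the run as in Myh1 and Myh4 would lie beyond the windows of Myh2 and Myh8. Sequence there was not searched. On either strand 12.4% of all windows hold TATAAA. The E-box, CANNTG, the letters that myogenic bHLH factors read, was in the windows of Myh3, Myh4 and Myh8, was not in those of Myh1 and Myh2, and was in 66.2% of all windows. The MEF2 pattern was in the windows of Myh1, Myh4 and Myh8 and in 2.92% of all windows, and overlapped a TATAAA of the other strand in each. The CArG box was in that of Myh4 and in 1.47% of all windows. These matches describe letters, and binding was not measured. The run was present before Myh4, Myh8 and Myh2, with differences of 1.19, 0.97 and 0.46, and before Myh1, with no difference counted. It was not present before Myh3, with 1.07. The part of the run in the differences was not tested.

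The other genes of the thick filament differed by less than the sarcomeric heavy chains by their median, except with normexp as first fitted, where their median was 1.79 against 0.50. Of 10 thick filament and M-band partners 8 were detected on both arrays. Of these, 7 read higher in tumour 2, beside 48.4% of all detected genes, with a median of 0.35. Mybpc2, the fast myosin-binding protein C, had a level of 0.52 in tumour 1 and 0.93 in tumour 2. Mybpc3, the cardiac form, differed by -0.12, and Mybpc1, the slow form, had no spot away from flags. Obsl1, a cytoskeletal adaptor related to obscurin, was the 1 partner at least 2-fold apart, at levels of -4.86 and -2.58 (4.85-fold). It stands beside 2.59% of all detected genes at least 2-fold higher in tumour 2. It was read by 1 probe, and the lowest level well above background on array 1 was -5.78.

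The light chains sit on the neck of the heavy chain, and 11 of the 14 listed light chains and kinases were detected. Higher in tumour 2 were 7 of these 11, beside 48.4% of all detected genes. Their median of 0.15 was above 0 in 9 of 12 alternatives of processing and above the median of all genes in 11. Myl1, the fast essential light chain, read -1.88 and -1.17, a difference of 0.71. Myl3, the slow essential chain, differed by 0.35, and Myl2, the slow regulatory chain, was not detected. Mylpf, the fast regulatory light chain that pairs with the fast heavy chains, differed by -0.07. Myl6 and Myl12b, light chains of the non-muscle motor, differed by 0.18 and 0.15. None of the list was at least 2-fold apart.

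The genes that fold and degrade myosin went the other way by their counts. Of 9 such genes 7 were detected and 1 read higher in tumour 2, beside 48.4% of all detected genes, with a median of -0.26. Unc45a, the general myosin chaperone, differed by -0.27 and Smyd1, a muscle methyltransferase needed for thick filament assembly, by -0.11. Unc45b, the muscle chaperone, had no spot away from flags. Trim55, a titin-bound ubiquitin ligase, was the 1 gene at least 2-fold apart, at levels of 5.55 in tumour 1 and 4.52 in tumour 2. It was 2.04-fold higher in tumour 1, as were at least 2-fold 3.87% of all detected genes.

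Of 18 regulators of fibre type and myosin genes 14 were detected and 6 read higher in tumour 2, beside 48.4% of all detected genes. Their median of -0.20 was above 0 in 2 of 12 alternatives and above the median of all genes in 4. None of these regulators was at least 2-fold apart. Six4, a homeobox factor, differed by -0.91, and the transcriptional cofactor Eya1 by -0.50. Sox6 and Prox1, which act on fibre type, were not detected. Of the class II heavy chains that are no member, Myh14, a non-muscle chain, differed by -0.27, and Myh7b and Myh15 were not found on the array by name.

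**Figure D3:**
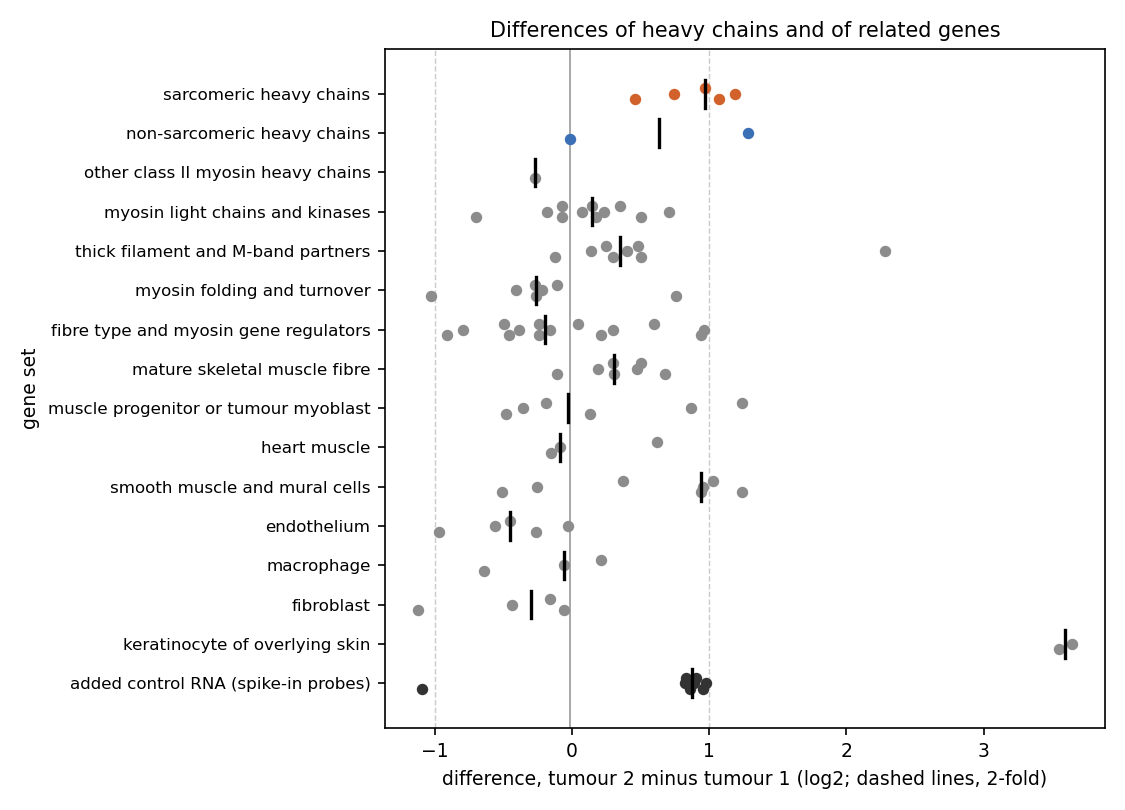
Each point is a gene detected on both arrays away from flags (the last row: a spike-in probe), with its difference, tumour 2 minus tumour 1 (log2), on the horizontal axis and gene sets as rows. Black ticks are medians, the grey line is the median of all detected genes and dashed lines mark 2-fold; the sarcomeric heavy chains centre at 0.97, thick filament partners at 0.35, light chains at 0.15 and spike-in probes at 0.87.

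Marker genes of other cells differed between the tumours as well. In a whole tumour, a larger number of cells of a type and more RNA in each cell cannot be told apart. The counts of markers stand beside 48.4% of all detected genes higher in tumour 2. Calls of 2-fold stand beside 2.59% towards tumour 2 and 3.87% towards tumour 1. A summed level adds the signals of the detected genes of a list, so the brightest probes weigh most. Of 10 markers of mature skeletal muscle fibres 7 were detected and 6 read higher in tumour 2. Their median was 0.31, which was 1.03 with normexp as first fitted, and their summed level was 3.44 in tumour 1 and 3.75 in tumour 2. Ckm, muscle creatine kinase, read -4.79 and -4.29, and Atp2a1, the calcium pump of fast fibres, read -1.90 and -1.42. Acta1, skeletal actin, had no spot away from flags, and Pvalb, parvalbumin of fast fibres, was not detected. The part of mature fibres in the differences of the heavy chains was not tested.

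Of 8 markers of muscle progenitors 6 were detected, 3 of them higher in tumour 2, with a median of -0.03 and summed levels of -0.35 and 0.11. Myod1 and Myog, the myogenic factors, differed by -0.35 and 0.13, while Myf5 and Pax7 were not detected. Des, the muscle intermediate filament desmin, was 2.36-fold higher in tumour 2, at levels of -2.41 and -1.17. Des is also counted among the smooth muscle and mural markers, where 7 of 8 were detected and 5 read higher in tumour 2. Their median was 0.94, and 0.45 with normexp refitted, and their summed levels were 1.63 and 2.27. The 0.94 is the value of Myocd. Its level of -5.31 in tumour 1 was near the lowest level well above background there, -5.78. In that list Tagln differed by 1.03, Acta2 by -0.51 and Cnn1 by -0.25, beside a Myh11 not well above background in either tumour.

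Of 7 heart muscle markers 3 were detected, with a median of -0.09 and summed levels of 6.34 and 6.25, and Tnnt2, Myl7 and Ryr2 were not detected, nor was Myh6. Nppa and Nppb, the natriuretic peptides, differed by -0.15 and -0.09, and Tnni3, the cardiac troponin I, by 0.62. Nppb alone had levels of 6.34 and 6.25. Skin markers differed most. Krt5 and Krt14, keratins of basal keratinocytes, were 11.7-fold and 12.5-fold higher in tumour 2, each by 1 probe. Their levels in tumour 1 were -5.21 and -4.26, where the lowest level well above background was -5.78. Their median difference was 3.59, and 2.43 with normexp refitted. The summed level of the detected skin markers was -3.66 and -0.05. Krt1 was detected in tumour 1 and Krt10 in tumour 2, each in that tumour alone.

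Most markers of the remaining host cells read higher in tumour 1. Of 5 endothelial markers 5 were detected and 0 read higher in tumour 2, with a median of -0.45 that was above 0 in 1 of 12 alternatives, and summed levels of 1.87 and 1.07. Of 4 fibroblast markers 4 were detected and 0 read higher, with a median of -0.30 and summed levels of 6.56 and 6.44, and Dcn, decorin, was 2.18-fold higher in tumour 1. Of 4 macrophage markers 3 were detected, with a median of -0.06 and summed levels of 1.35 and 1.26. The part of these markers in the heavy chain differences was not tested.

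**Figure D4:**
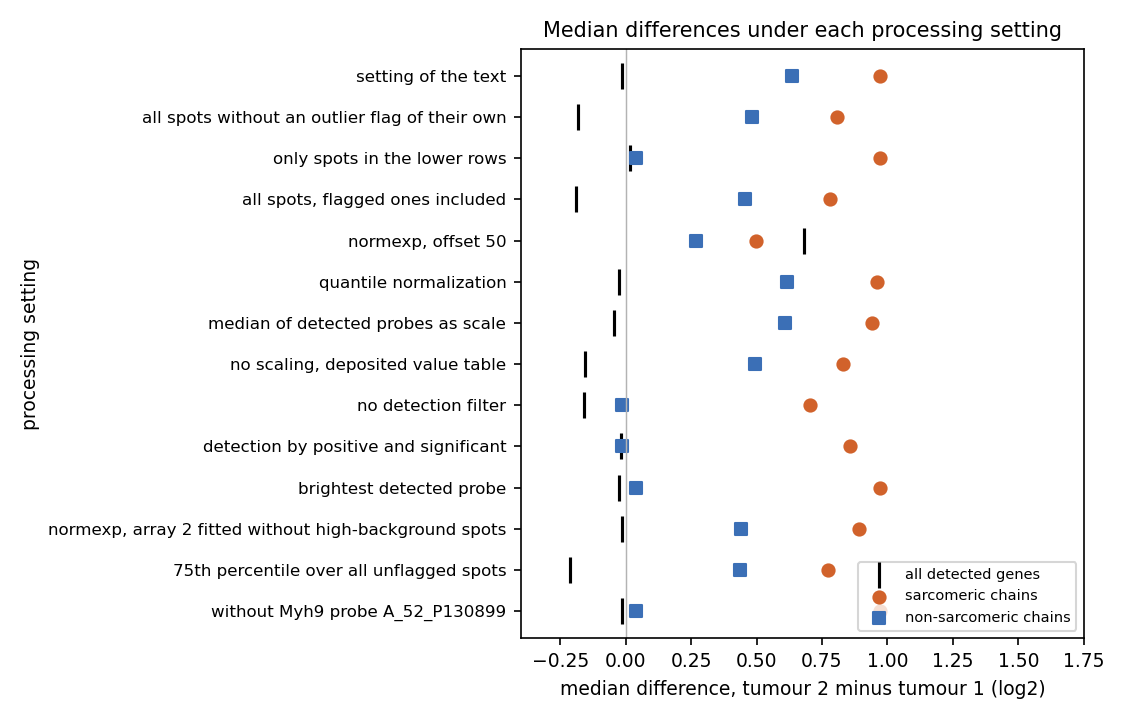
Median difference between the tumours (tumour 2 minus tumour 1, log2, horizontal axis) for sarcomeric chains (orange points), non-sarcomeric chains (blue squares) and all detected genes (black ticks), with 1 row for each processing setting. The sarcomeric median stays above the median of all genes in each row except normexp with offset 50, where it is 0.50 against 0.68, and the non-sarcomeric median falls to 0.040 without the Myh9 probe A_52_P130899.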

How the data were processed

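RNA of 2 tumours was read on 2 single-colour Agilent arrays on 1 slide. Trizol was used for total RNA and 1 µg was labelled with Cy3, per the labels. The deposited intensity values were written by Agilent Feature Extraction, 9.1.3.1 per the file headers and 8 per the submitters' processing notes. No scaling between arrays is recorded. The deposited intensity table held the same value as the processed signal at all 45018 spots of each array. Log2 values were computed here from the deposited intensity. Names came from the file of tumour 2, because 47 spots of the other file had altered names. Of 41174 probes, 22951 matched RefSeq (GRCm38.p6), which updated names of genes other than the members. The arrays had 27014 (62.3%) and 28680 (66.1%) of 43379 spots well above background, which bounds the precision, and 0 and 4 saturated spots.

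Left out were spots flagged as outliers on either array and spots at most 2 rows and columns away from a flag on array 1, or from any of 11 spots of array 2 with a local background above 100, which kept 31299 spots (72.2%). The 75th percentile was taken over these spots, and over all unflagged spots as an alternative. Detection of a probe required that 50% or more of its spots passed the scanner's well above background call, and that of a gene required such a probe on both arrays. Its difference is the median over such unsaturated probes. A probe above background in 1 tumour received a bound against the lowest level well above background on the other array. Called means at least 2-fold apart, and no test was run.

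The members and lists, and the probe and spot rules, were chosen with earlier results of these data known. The text names all members with their probes, the first 3 genes of each list of myosin-related genes and list genes at least 2-fold apart. Cell type markers are given by counts and examples. A list gene that this rule would name is not reported here. Further list genes and the genomic neighbours were named after their values were seen. Alternatives were 10 planned and 3 added after seeing the data, plus each tumour alone. Software was Python 3.11.15 and, for normexp and quantile scaling, limma 3.58.1 in R 4.3.3, and the procedure was tested on simulated data.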

Additional observations from a re-analysis of the deposited data

How the results depend on the processing

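Of 91 differences of single member genes under 13 alternatives, 79 moved by less than the technical SD of 0.24 for the difference of single spots. The other 12 moved further, and 0 of those called 2-fold changed sign. The difference of Myh8 ranged from -0.32, when probes not above background were averaged in, to 0.97, that of Myh9 from 0.09 to 1.29, that of Myh7 from 0.32 (normexp refitted) to 3.0 (normexp as first fitted), that of Myh4 from 0.50 to 1.19, that of Myh3 from 0.82 to 1.46 and that of Myh2 from 0.24 to 0.46. Myh2, Myh3, Myh4 and Myh7 were higher in tumour 2 in 13 of 13, and Myh10 in 0 of 13. Median differences of sarcomeric chains moved to 0.50 with normexp and 0.70 without a detection filter. For the non-sarcomeric chains they moved to 0.041 in the lower rows, 0.27 with normexp, -0.013 both without a detection filter and with the positive and significant call, 0.040 with the brightest probe and 0.040 without the Myh9 probe. The gap between both classes became 0.93 in the lower rows, with the brightest probe and without the Myh9 probe, 0.72 without a detection filter and 0.87 with the positive and significant call. With the 75th percentile over all unflagged spots 1 member was at least 2-fold higher in tumour 2, and 29.2% of all genes read higher there.

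Of all genes, those past 2-fold towards tumour 2 and towards tumour 1 numbered 866 and 1083 with spots near flags, 1081 and 1140 with flagged spots too, 153 and 269 in the lower rows, 913 and 1315 without a detection filter, 645 and 993 with the positive and significant call, 172 and 150 with normexp refitted and 228 and 945 with the percentile over all unflagged spots. With normexp as first fitted 6103 were higher in tumour 2. Medians of related lists lay above 0 under 12 of 12 alternatives for mature fibre, thick filament, mural and skin genes. They did so under 5 for progenitors, 4 for heart, 2 for macrophages and 0 for myosin folding and fibroblasts. Set against the median of all genes, the first 4 lists stayed above under 12 of 12. The others did so under 4 for progenitors, 4 for heart, 3 for macrophages and 0 for myosin folding and fibroblasts. The cause of these moves was not tested, apart from Myh9, where leaving out the probe is the change itself. Members detected numbered 7 to 8, sarcomeric chains 5 to 6 and non-sarcomeric chains 2 when 1 tumour was used alone. No paired analysis was possible because the labels give 1 group. Signal over background limits Myh1, Myh6, Myh7 and Myh11, and 1 tumour on each side allows no error for a difference between tumours.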
